A study of Mus musculus with 8 samples.

Results

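The cytosolic ribosome is built from a large and a small subunit, each a scaffold of ribosomal RNA that carries its own set of proteins, and every cell makes these proteins from some of its most abundant mRNAs. Most of the proteins are needed in equal numbers, the P-stalk proteins Rplp1 and Rplp2 in more copies, and they are named Rpl for the large and Rps for the small subunit, and their mRNAs are known for being controlled together, at transcription by Myc and at translation by mTOR through a pyrimidine tract at the 5' end. In bone marrow the dose of these genes matters: heterozygous loss of any of several of them causes Diamond-Blackfan anemia, and RPS14 loss contributes to the anemia of 5q- syndrome. Most of them have left processed pseudogenes, which are copies of the mRNA inserted elsewhere in the genome.

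Cytosolic ribosomal protein genes were chosen here by name, as gene symbols of the form Rpl or Rps followed by a number (with an optional a, x or l1), together with Rplp0, Rplp1, Rplp2 and Rpsa. The rule found 78 of the 29955 gene names in the tables, 48 of the large and 30 of the small subunit. The level of each was read in RNA-seq libraries of 4 groups of 2, namely the LSK and the LK cells of WT and of Ripk3-/- mice. LSK cells are lineage-negative, Sca1+ Kit+ bone marrow cells, a population of hematopoietic stem cells and multipotent progenitors. LK cells are lineage-negative and Kit+, and the study describes them as Sca1-, which makes them mainly committed myeloid progenitors. WT and Ripk3-/- mice were of the CD57BL6/J background as the labels spell it, and Ripk3-/- mice lack the kinase that triggers necroptosis. The labels state that no treatment was given, whereas the study describes these libraries as coming from mice 1 month after the last of a series of X-ray doses, so both are given here and either holds for all 4 groups. Age and the number of mice behind a library are not given in the sources used here, and where libraries of a group share mice the p-values measure only the spread between those libraries.

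Each library held between 9782166 and 16280811 reads assigned to genes. Ripk3 itself stood at 162 and 168 in WT LSK, 3.38 and 1.08 in Ripk3-/- LSK, 144 and 150 in WT LK and 16.2 and 10.6 in Ripk3-/- LK cells, in the deposited unit (CPM, the reads of a gene scaled to library size, with a further scaling factor, called signal below). Ly6a, which encodes Sca1, was at 141 to 237 in LSK and at 4.12 or less in LK libraries, and Kit was at 223 or more in all 8. The X-inactivation transcript Xist was at 108 to 413 in the 4 WT libraries and at 1.27 or less in the 4 Ripk3-/- libraries, so sex and genotype cannot be told apart in any genotype comparison below. The summed signal of 6 neutrophil granule genes, which the lineage depletion should remove, also moved with genotype, from 683 and 749 in WT LSK to 2263 and 2684 in Ripk3-/- LSK, and from 772 and 771 in WT LK to 1666 and 1663 in Ripk3-/- LK cells. No defining gene of that list was at 0 in any library, and its part in the results was not tested.

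Reads in ribosomal protein genes can be hard to place, because a read may match the gene and its pseudogenes equally well, and what was done with such reads is not given in the sources used here. In the GENCODE M21 gene set (build GRCm38, whereas the deposited values were made on mm9), 77 of the 78 members shared at least 1 run of 50 bases with a pseudogene, with a median of 8 pseudogene copies per member and 1085 pseudogenes in all. In 29 members every 50-base run of the coding sequence was found in another gene as well, and in 11 members over 50% of these runs were found in no other gene. The sequences shown here are 60-base coding stretches of the members on which the results turn, each taken where the largest number of pseudogene copies is identical, with the closest copy that is not identical on the line below, and the base in which that copy differs in capitals.

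Rpl21: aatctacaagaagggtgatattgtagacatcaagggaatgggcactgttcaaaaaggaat

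Gm10045: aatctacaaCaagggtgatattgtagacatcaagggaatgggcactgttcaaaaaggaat

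Rpl29: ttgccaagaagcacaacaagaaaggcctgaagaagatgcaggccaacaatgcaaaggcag

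Gm10913: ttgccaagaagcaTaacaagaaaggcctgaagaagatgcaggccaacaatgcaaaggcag

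Rpl7a: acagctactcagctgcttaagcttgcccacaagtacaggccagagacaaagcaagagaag

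Gm11362: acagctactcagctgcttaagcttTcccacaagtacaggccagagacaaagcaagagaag

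Rpl41: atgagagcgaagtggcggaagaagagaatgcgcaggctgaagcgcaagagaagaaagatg

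Rps3: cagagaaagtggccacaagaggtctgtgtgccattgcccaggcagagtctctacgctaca

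The Rpl21 stretch (bases 96 to 155 of the coding sequence, gene at chr5:146832890-146837032, plus strand) was identical in 38 of 81 pseudogene copies. Bases 134 to 193 of Rpl29 (chr9:106429454-106431568, plus strand) were identical in 23 of 81 copies and bases 271 to 330 of Rpl7a (chr2:26910764-26913318, plus strand) in 35 of 119, the largest number of copies of any member. Rpl41, the smallest ribosomal protein gene with a coding sequence of 75 bases (chr10:128548114-128549305, minus strand), had 3 copies, all identical over its first 60 bases. The copies shown lie at chr17:29308138-29308620 (Gm10045), chr16:36209277-36209739 (Gm10913) and chr13:28836875-28837724 (Gm11362), each on the plus strand. Rps3 (chr7:99477896-99483738, minus strand) had 1 copy, identical over the stretch shown (bases 263 to 322). It is included as a member with most of its coding sequence, outside such stretches, its own. No copy line follows Rpl41 or Rps3, because all their copies are identical over the stretch.

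The first comparison asked how Ripk3 loss is reflected in the ribosomal protein mRNAs of LSK cells. Members took 4.32% and 5.17% of all reads of WT LSK cells and 3.14% and 3.57% of those of Ripk3-/- LSK cells, so the groups did not overlap. In Ripk3-/- LSK cells 24 members were lower and 1 was higher among the 77 that passed the filter on low values (limma, Benjamini-Hochberg adjusted p under 0.05), against 1.27% lower and 0.892% higher among the 16817 genes tested. The members' median log2 fold change was -0.46, beside -0.01 over all genes tested, and 65 of 77 lay below 0 (50.6% of all genes). In 47 of 77 both Ripk3-/- LSK libraries were below both WT LSK libraries, which held for 23.2% of all genes tested. In bulk RNA, fewer cells of a type and less RNA per cell cannot be told apart. Beside the neutrophil granule genes, all 6 of which were higher, 1 of 6 LSK marker genes was higher and none was lower. It was Flt3, a receptor of multipotent and lymphoid-primed progenitors, at 555 and 473 in WT LSK and at 874 and 886 in Ripk3-/- LSK cells (limma, adjusted p = 0.0298). Of 6 markers of LK myeloid progenitors, 1 was lower, which was Gata1, a transcription factor of erythroid and megakaryocytic cells, at 57.4 and 38.0 against 22.2 and 14.7 (limma, adjusted p = 0.0128). The summed signal of the LSK markers was 1297 and 1172 in WT LSK and 1782 and 1876 in Ripk3-/- LSK cells, and that of the LK markers 7722 and 8695 against 7118 and 5553, with no gene of either list at 0 in these libraries. Their part in the members' change was not tested. In the WT LSK library of replicate 2, 72 of 73 members with a signal of at least 20 in both libraries stood above replicate 1, by a median of 0.35 on the log2 scale. Replicate 2 was also the higher for 60 of 73 members in Ripk3-/- LSK, 70 in WT LK and 46 in Ripk3-/- LK cells, by medians of 0.23, 0.23 and 0.04. The count of called members was 4 without WT LSK replicate 2, 8 without Ripk3-/- LSK replicate 1 and 12 without Ripk3-/- LSK replicate 2.

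Rpl21, a protein of the large subunit, was the member with the lowest level relative to WT. Its signal was 247 and 292 in WT LSK and 47.3 and 46.7 in Ripk3-/- LSK cells. WT LK cells had 189 and 204 and Ripk3-/- LK cells 170 and 198, so both Ripk3-/- LSK libraries lay far under every other library. The deposited values were scaled separately in LSK and LK cells, and values on a common scale are given with the comparison of the populations below. The log2 fold change in LSK cells was -2.49 with a standard error of 0.20 (limma, adjusted p = 1.15e-07), a fold of 5.61.

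Rpl41, which lies at the bridge between the subunits, had a signal of 450 and 673 in WT LSK and of 126 and 158 in Ripk3-/- LSK cells. Its LK libraries stood at 372 and 468 in WT and at 419 and 430 in Ripk3-/- cells, so again only the Ripk3-/- LSK pair was low. The log2 fold change was -1.95 ± 0.20 (SE, limma, adjusted p = 3.22e-06), and with eBayes without trend it missed the threshold (adjusted p = 0.0528).

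Rpl29, a small basic protein of the large subunit, was at 232 and 272 in WT LSK and at 63.5 and 76.1 in Ripk3-/- LSK cells. In LK cells it was at 177 and 216 in WT and at 158 and 182 in Ripk3-/- libraries, which overlap. Its log2 fold change in LSK cells was -1.84 ± 0.20 (SE, limma, adjusted p = 9.74e-06).

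**Figure D1:**
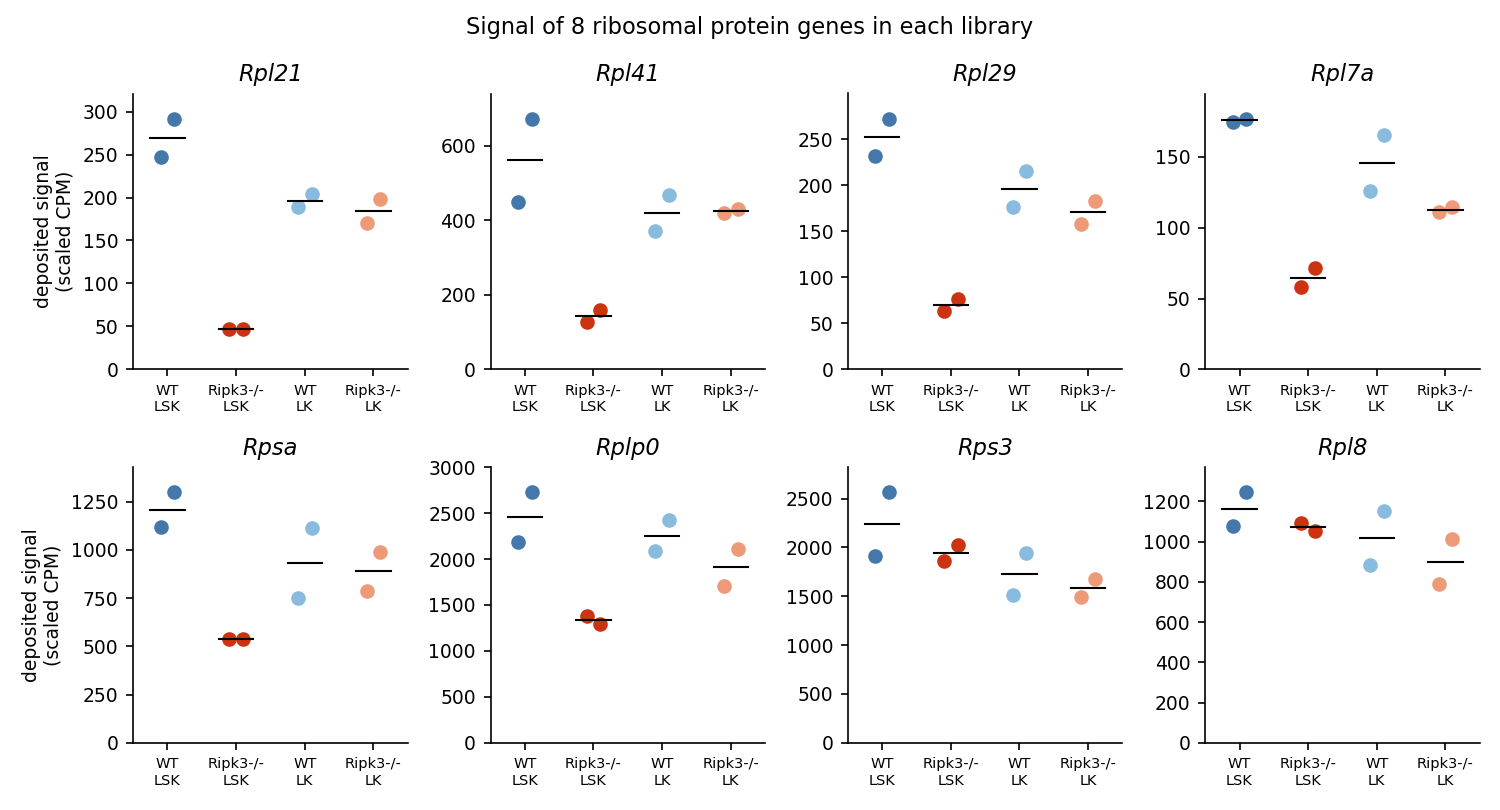
Deposited signal (scaled CPM, vertical axis) of 8 ribosomal protein genes in the 2 libraries of each group, with 1 point per library and a line at the group mean. Rpl21, Rpl41, Rpl29 and Rpl7a are low in both Ripk3-/- LSK libraries alone, Rpsa and Rplp0 are also lowest there, and Rps3 and Rpl8 overlap between the genotypes of LSK cells.

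Further members of the large subunit were lower in Ripk3-/- LSK cells. Rpl7a fell from 175 and 177 to 58.1 and 71.4, a log2 fold change of -1.44 (limma, adjusted p = 0.000485). Rpl6 fell from 498 and 636 to 261 and 266 (log2 fold change -1.09, limma, adjusted p = 0.000702). Neither pair of values overlaps. Rplp0, the scaffold of the P-stalk that recruits translation factors, fell from 2189 and 2730 to 1383 and 1290 (-0.87, limma, adjusted p = 0.00204). Rpl36 fell from 351 and 526 to 204 and 201 (-1.08, limma, adjusted p = 0.00778), and Rpl7 from 1058 and 1285 to 652 and 722 (-0.76, limma, adjusted p = 0.00927). These 5 genes differ widely in level and all kept a gap between the groups. Rpl19 had the same adjusted p as Rps6 (0.0120 in the limma fit) and fell from 385 and 503 to 243 and 245.

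In the small subunit, Rpsa, which is also known as the laminin receptor precursor, fell from 1116 and 1300 to 538 and 538, a log2 fold change of -1.16 (limma, adjusted p = 0.000552). The X-linked Rps4x fell from 877 and 941 to 455 and 509 (-0.92, limma, adjusted p = 0.00155). Rps18, at the head of the small subunit, fell from 1224 and 1563 to 725 and 779 (-0.88, limma, adjusted p = 0.00206). In each of these genes the genotypes of LSK cells did not overlap. Rps25 fell from 651 and 816 to 327 and 452 (-0.92, limma, adjusted p = 0.00467). Rps6, the substrate of S6 kinase, fell from 584 and 641 to 351 and 382 (-0.74, limma, adjusted p = 0.0120). The other X-linked members, Rpl10, Rpl36a and Rpl39 of the large subunit, were not called, at log2 fold changes of 0.08, -0.09 and 0.03.

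Further called members that were lower were Rpl3, Rpl10a, Rpl11, Rpl13, Rpl15, Rpl18, Rps3a and Rps16, with log2 fold changes between -0.85 and -0.62. By subunit, 15 of 47 large and 9 of 30 small subunit members tested were lower, and the medians were -0.50 and -0.45. The ratio of large to small subunit reads was 1.11 and 1.09 for WT LSK cells and 1.11 and 1.04 for Ripk3-/- LSK cells. It was 1.23 and 1.20 in WT LK and 1.17 and 1.19 in Ripk3-/- LK cells, above all LSK libraries.

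Of the 3 P-stalk proteins, Rplp0 was lower and its partners Rplp1 and Rplp2 did not pass the test, at log2 fold changes of -0.36 and -0.08 (limma, adjusted p = 0.306 and 0.851). Rpl5 and Rpl11 join the 5S ribosomal RNA and can bind Mdm2 when assembly fails. Rpl11 was lower (345 and 427 against 235 and 230, limma, adjusted p = 0.0439), and Rpl5, at 646 and 729 against 470 and 514, was not called (log2 fold change -0.48). Of the 21 genes listed for Diamond-Blackfan anemia and 5q- syndrome, 4 were lower, among them Rpl11, Rpl15 and Rpl18, none was higher and the median was -0.45. Rps19, the gene most often mutated in the disease, was at 1145 and 1510 against 914 and 946 (log2 fold change -0.50, limma, adjusted p = 0.0894), and Rps14 at 1417 and 1830 against 1314 and 1576 (-0.16, limma, adjusted p = 0.605). Rpl7 was lower while its paralogue Rpl7l1, an assembly factor of the nucleolus, was at 220 and 193 against 231 and 168 (-0.06, limma, adjusted p = 0.905). Rpl22 and its paralogue Rpl22l1 had log2 fold changes of 0.11 and -0.41, and neither was called (limma, adjusted p = 0.783 and 0.311).

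A few members were almost unread in WT LSK cells, and 1 of them was higher in Ripk3-/- LSK cells. Rpl13a, a protein of the large subunit that is also known from the GAIT complex, was at 1.39 and 1.97 in WT LSK and at 15.4 and 11.7 in Ripk3-/- LSK cells, a log2 fold change of 2.44 (limma, adjusted p = 0.0370) that edgeR did not call. Rpl34 was at 2.88 and 2.38 against 11.7 and 6.94 and was not called (limma, adjusted p = 0.206). Both genes stayed between 1.43 and 5.65 in the 4 LK libraries. Rps2 was listed at 0 in both WT LSK libraries and at 3.22 and 2.35 in the Ripk3-/- LSK libraries. Rpl31 was likewise at 0 in both WT LSK libraries and at 2.49 and 3.03 in Ripk3-/- LSK cells. Against a floor of 3 reads per library, the Ripk3-/- LSK means were at least 9.14-fold and 9.07-fold higher for Rps2 and Rpl31. Both passed the filter on low values only through the Ripk3-/- LSK libraries, here and in the comparison of LSK with LK cells in Ripk3-/- mice, so no test is given for them and the 77 members tested include these 2. Rpl31 was also at 0 in WT LK replicate 2 and Ripk3-/- LK replicate 2, and Rps2 in Ripk3-/- LK replicate 2. These 4 genes have between 5 and 71 pseudogene copies in the gene set, and at most 27.8% of their coding 50-base runs are their own.

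In LK cells the second comparison put the same question to committed progenitors, and no member was called among 75 tested, against 0.473% of 13949 genes. None reached an unadjusted p under 0.05 either, a mark that 6.56% of all genes tested reached, and edgeR and DESeq2 also called 0. The members' median log2 fold change was -0.05 and their range was -0.43 to 0.21. Large and small subunit medians were -0.07 and -0.05. Members took 3.09% and 3.86% of reads in WT LK and 3.48% and 3.41% in Ripk3-/- LK libraries, which overlap. For Rpl21 the LK log2 fold change was -0.10, with a 95% interval of -0.50 to 0.31, and for Rpl41 it was 0.02, with an interval of -0.38 to 0.43. The neutrophil granule genes were higher in the Ripk3-/- LK libraries too, by the sums given above.

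The third comparison asked whether the genotype difference itself differed between LSK and LK cells. It did for 3 of 75 members, all lower, against 0.176% lower among 15901 genes tested. The LSK fold change was below that in LK cells by 2.39 ± 0.28 on the log2 scale for Rpl21 (SE, limma, adjusted p = 0.000120), by 1.98 ± 0.28 for Rpl41 (limma, adjusted p = 0.00103) and by 1.64 ± 0.29 for Rpl29 (limma, adjusted p = 0.00798). These are the members with the largest fall in LSK cells. For the other 72 the difference did not pass the test, although 62 of 75 lay below 0 (49.8% of all genes tested) and the median was -0.41. The 21 further members lower in LSK cells are therefore not shown to differ between the populations. Without WT LK replicate 2 the count was 6, and Rpl29 missed the threshold without WT LSK replicate 2, WT LK replicate 1 or Ripk3-/- LK replicate 2 (limma, adjusted p = 0.0855, 0.114 and 0.0794). With eBayes without trend none of the 3 passed (adjusted p = 0.134 for Rpl21, 0.229 for Rpl41 and 0.250 for Rpl29), and with no filter on low values Rpl41 and Rpl29 did not (both 0.232).

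**Figure D2:**
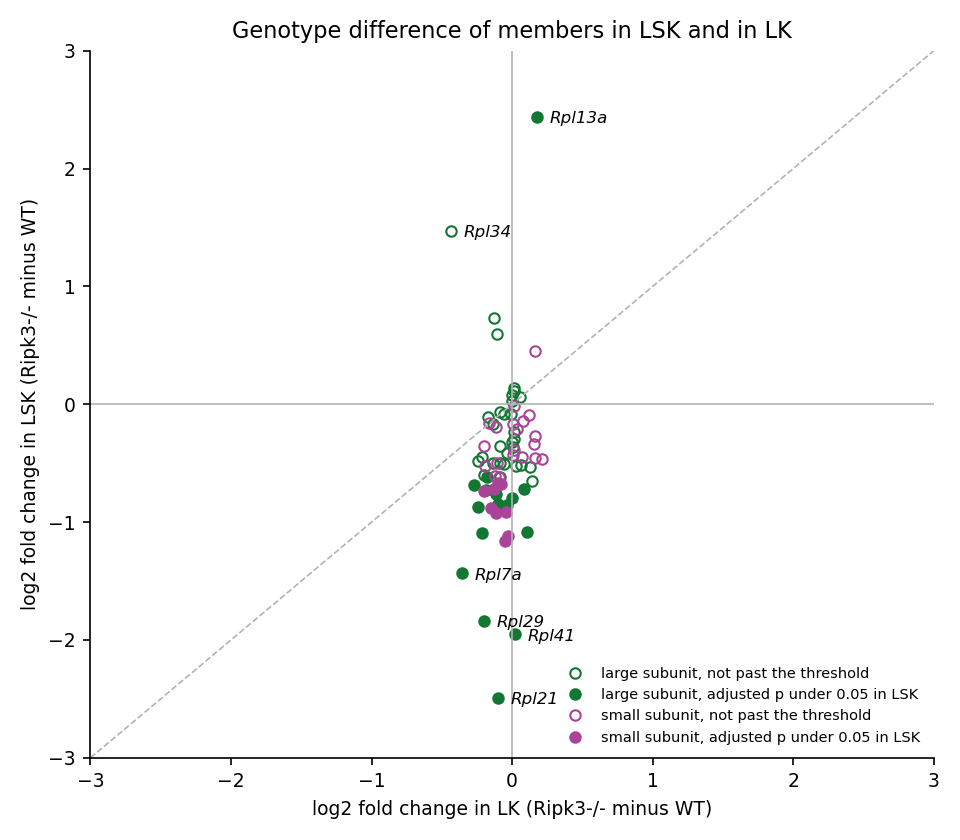
Log2 fold change of Ripk3-/- against WT in LK cells (horizontal) and in LSK cells (vertical), 1 point for each of the 75 members tested in both, coloured by subunit and filled where the LSK change passed an adjusted p of 0.05. The points spread from -2.49 to 2.44 in LSK but only from -0.43 to 0.21 in LK cells, and the dashed line marks equal change.

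The LSK changes were set beside the share of each member's sequence that is its own. Of the 11 members with over 50% own coding sequence, 1 was lower, and their median log2 fold change was -0.17. Rps3, with 91.9%, was at 1916 and 2567 in WT and at 1862 and 2022 in Ripk3-/- LSK cells (-0.19, limma, adjusted p = 0.547), and Rpl8, with 91.3%, at 1075 and 1246 against 1092 and 1053 (-0.11, limma, adjusted p = 0.762). Both genes overlap between the genotypes. Rpl4, Rpl7l1, Rpl22 and Rpl32 are also in this set, with log2 fold changes of -0.17, -0.06, 0.11 and -0.23.

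Where no coding 50-base run was a member's own, 10 of 29 were lower and the median was -0.50, and with over 0 to 20% it was 11 of 28 lower, 1 higher and -0.53. With over 20 to 50% of its own, 2 of 9 were lower and the median was -0.45. In LK cells the same sets had medians of -0.12 for over 50%, 0.00 for none, -0.09 for over 0 to 20% and -0.09 for over 20 to 50%. Over the 77 members tested in LSK cells, the rank correlation (Spearman) of the log2 fold change was 0.26 with the share of own coding sequence, -0.26 with the number of pseudogene copies, -0.31 with coding length and -0.03 with GC content. These are descriptions over genes that share libraries and are not independent. The limits of 20% and 50% were set after the values were seen.

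Genes outside the members were split in the same way. Among genes that are not members and have at most 50% own 50-base runs in the mRNA, 40 of 379 tested were lower and 4 were higher in Ripk3-/- LSK cells, 11.6% called, with a median of -0.26. Among the 10543 other genes whose mRNA is wholly their own, 1.46% were called and the median was 0.02. Of the 39 members with at most 50%, 46.2% were called. After the trend of each library's values on the share of own 50-base runs was removed, 11 members were called in LSK cells and the members' median was -0.16.

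**Figure D3:**
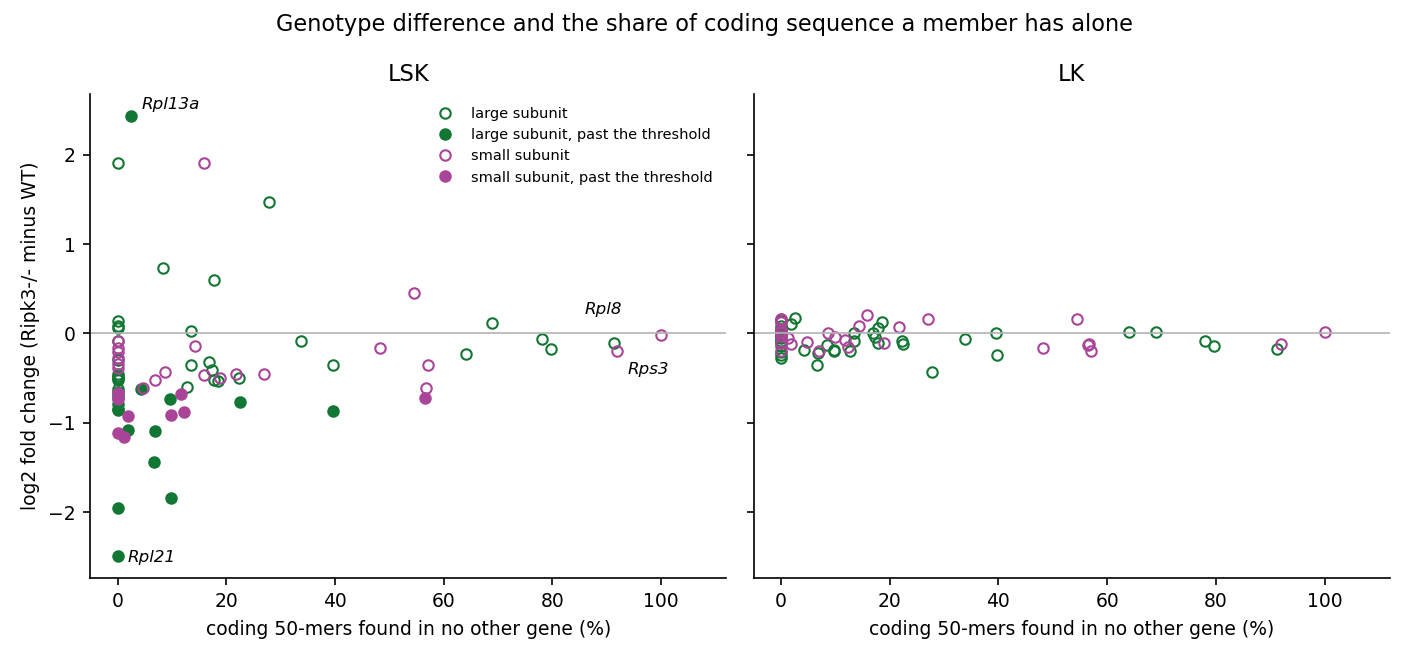
Log2 fold change of Ripk3-/- against WT (vertical) against the percent of coding 50-base runs found in no other gene (horizontal), for 77 members in LSK (left) and 75 in LK cells (right). The members with the lowest fold changes in LSK cells have under 10% of own sequence. So does Rpl13a, the highest at 2.44, with 2.5%, and 29 of the 77 members have none. All members in LK cells stay between -0.43 and 0.21.

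The other genes of the pathway were counted from lists. Of 19 other mRNAs with a 5' terminal pyrimidine tract tested in LSK cells, 4 were lower and the median was -0.27, beside the 1.27% lower and the median of -0.01 over all genes tested. Eef1a1, the elongation factor that brings aminoacyl-tRNA to the ribosome, was at 4966 and 5272 in WT LSK and at 2902 and 2636 in Ripk3-/- LSK cells (-0.89, limma, adjusted p = 0.000595), and 3599 to 4564 in LK cells. Npm1, an assembly chaperone, was at 1155 and 1215 against 759 and 907 and was not called (-0.51, limma, adjusted p = 0.0634). Among genes outside the naming rule, Fau, which encodes Rps30, was at 244 and 327 against 154 and 184 and was not called (limma, adjusted p = 0.0563). Of 57 ribosome assembly factors, 19 RNA polymerase I genes and 18 genes that control ribosome production or pyrimidine-tract translation, none was called, with medians of 0.05, -0.10 and 0.05. The 73 mitochondrial ribosomal protein genes tested, which serve the organelle's own ribosome, had 2 higher, none lower and a median of -0.03. None of these lists had a gene called in LK cells.

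The bases at the annotated start were examined for the pyrimidine tract itself, searched on the coding strand as a C followed by at least 4 of C or T that starts within 5 bases of the start in the RefSeq table (build GRCm38). Of the 57 members in that table, 26 (45.6%) held it, beside 18.5% of all 27025 starts. The Rpl7a start, which holds it (chr2:26910787-26910816, plus strand), and the Rpl41 start, which does not (chr10:128549159-128549188, minus strand), are shown. Each has 20 bases before and 10 from the start on, with the tract in capitals.

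Rpl7a start: ccacaattccctcttCTTTCTTTCTCCagc

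Rpl41 start: gacgacacacgggccggctcggaagtgacg

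The median LSK log2 fold change was -0.43 over the 26 members with the tract at that start and -0.52 over the 31 without it there. A single annotated start was searched per gene, so a tract at another start would be missed. The Rpl41 start, for example, lies inside its gene model, which reaches chr10:128549305. Members without the tract here are therefore not shown to lack it in their mRNA.

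LSK and LK cells were then compared within each genotype, with CPM put on 1 scale over the 8 libraries, because the deposited values were scaled within each population. In WT mice 4 of 75 members differed, 2 higher and 2 lower in LSK cells, against 23.9% of 15950 genes (9.16% higher and 14.8% lower), and the median was 0.07, as over all genes (0.08). With CPM of the total reads and no scaling factor, 43 members were higher and none lower, but the median of all genes then also moved up by 0.37. With quantile normalization 36 were higher and none lower while the median of all genes moved by -0.06, and on the deposited scale 28 were higher (all genes up by 0.32). The direction of the WT comparison thus depends on the scaling. Without WT LK replicate 1 the count of called members was 0, and without WT LSK replicate 2 it was 1.

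Rps27, a zinc-binding protein of the small subunit, was higher in WT LSK cells, at 307 and 431 against 176 and 266 in WT LK cells (0.75 ± 0.21, SE, limma, adjusted p = 0.0134). Rpl22l1 was higher, at 179 and 181 against 115 and 115 (0.64 ± 0.21, limma, adjusted p = 0.0310). Its paralogue Rpl22 is known as the more widely expressed form. Rpl7l1 was lower in LSK, at 193 and 169 against 372 and 272 (-0.81 ± 0.20, limma, adjusted p = 0.00553), and Rpl4 was lower, at 1958 and 2134 against 2706 and 2818 (-0.43 ± 0.14, limma, adjusted p = 0.0266). Neither pair of groups overlaps, but both genes were named because they passed the test here, so this adds no support. Of 57 ribosome assembly factors, to which Rpl7l1 is related in role, 42 were lower and none higher in WT LSK cells, with a median of -0.82, and 30 of 38 proteasome subunits were lower as well. Rpl21, Rpl41 and Rpl29 did not pass the test in WT mice, with log2 fold changes of 0.08, 0.03 and -0.01 and standard errors of 0.20 each.

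In Ripk3-/- mice, 24 of 77 members were lower and 2 higher in LSK than in LK cells, against 12.2% lower and 7.95% higher among 15237 genes, and the median was -0.32. This comparison uses the same Ripk3-/- LSK libraries as the genotype comparison in LSK cells. Rpl21 was at 41.9 and 40.9 in LSK and at 193 and 227 in LK cells (-2.31 ± 0.20, SE, limma, adjusted p = 1.65e-08). Rpl41 was at 112 and 139 against 476 and 493 (-1.95, limma, adjusted p = 1.55e-07), and Rpl29 at 56.3 and 66.6 against 180 and 209 (-1.65, limma, adjusted p = 3.12e-06). Rpl7a, at 51.5 and 62.5 against 126 and 131, and Rpsa, at 477 and 471 against 897 and 1136, completed the 5 largest decreases (-1.17 and -1.09, limma, adjusted p = 0.000405 and 9.75e-05). None of these 5 overlapped between the populations, but they were chosen as the largest decreases here, so this adds no support. The members higher in LSK were Rpl13a, at 13.6 and 10.3 against 2.52 and 1.64 (2.07 ± 0.61, limma, adjusted p = 0.0173), and Rpl35, at 208 and 269 against 137 and 134 (0.80 ± 0.20, limma, adjusted p = 0.00677).

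The count was 13 without Ripk3-/- LSK replicate 1, 17 without Ripk3-/- LK replicate 1 and 11 without Ripk3-/- LK replicate 2. Scaling moved the split too: 8 were higher and 10 lower with CPM of the total reads (all genes up by 0.28), 7 higher and 9 lower with quantile normalization, 10 higher and 10 lower on the deposited scale, and 2 higher and 39 lower with median-centred libraries (all genes down, a shift of -0.20). Rpl21, Rpl41, Rpl29 and Rpl7a were lower under each of the 23 alternatives run. Rpl7l1 and Rpl4 were lower in LSK cells in this genotype as well, at -0.79 and -0.47 (limma, adjusted p = 0.00670 and 0.0164).

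**Figure D4:**
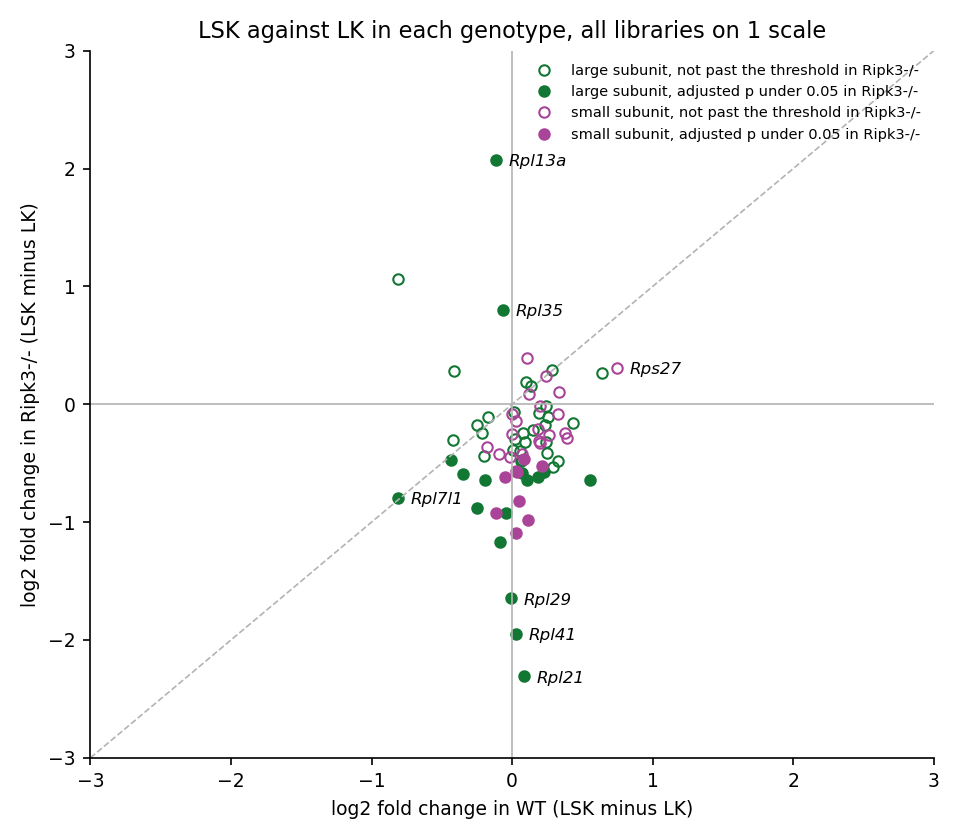
Log2 fold change of LSK against LK cells in WT (horizontal) and in Ripk3-/- mice (vertical) on 1 scale of CPM, 1 point for each of the 75 members tested in both, filled where the Ripk3-/- change passed an adjusted p of 0.05. All 75 lie between -0.81 and 0.75 in WT, and Rpl21, Rpl41 and Rpl29 stand apart at -2.31, -1.95 and -1.65 in Ripk3-/- mice.

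Levels of different members were compared per kilobase of coding sequence, as CPM per kb on the 1 scale. The median member was at 783, 49 members lay within 2-fold and 73 within 10-fold of it. The highest were Rpl41 (5263), Rps14 (2741), Rps3 (2553), Rps19 (2270) and Rpl32 (2193). The order at the top depends on the length used, since 2 of these 5 stayed among the highest 5 per kb of mRNA, Rps14 at rank 1 and Rpl32 at rank 3. Rps19 was then at rank 6, Rps3 at rank 13 and Rpl41, with a coding sequence of 75 bases in an mRNA of 437, at rank 15. In Ripk3-/- LSK cells Rpl41 ranked 8th per coding length and 1st in the other 3 groups. The median was 650 in the large and 1014 in the small subunit.

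Members below the 10-fold range included Rpl34 (13.5), Rpl13a (7.04), Rpl31 (1.72) and Rps2 (0.916). They were also among the lowest 5 per length of the mRNA. Rpl17 (91.4), Rpl7a (158), Rpl23a (187) and Rpl10a (324) came next. Rpl17, Rpl7a, Rpl23a, Rps2 and Rpl31 have 50, 119, 28, 71 and 25 pseudogene copies. Rpl34, Rpl13a and Rpl10a have 9, 5 and 5, beside a median of 8 over all members. By the mean over the 8 libraries Rpl34 was 58.2-fold below the median member. Its group means lay between 6.58 (WT LSK) and 23.4 (Ripk3-/- LSK). Rps2 was at 2.79 in Ripk3-/- LSK, 0 in WT LSK, 0.587 in WT LK and 0.287 in Ripk3-/- LK cells. The mean of Rps2 thus rests mostly on 1 group, and no fold to the median is given for it.

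**Figure D5:**
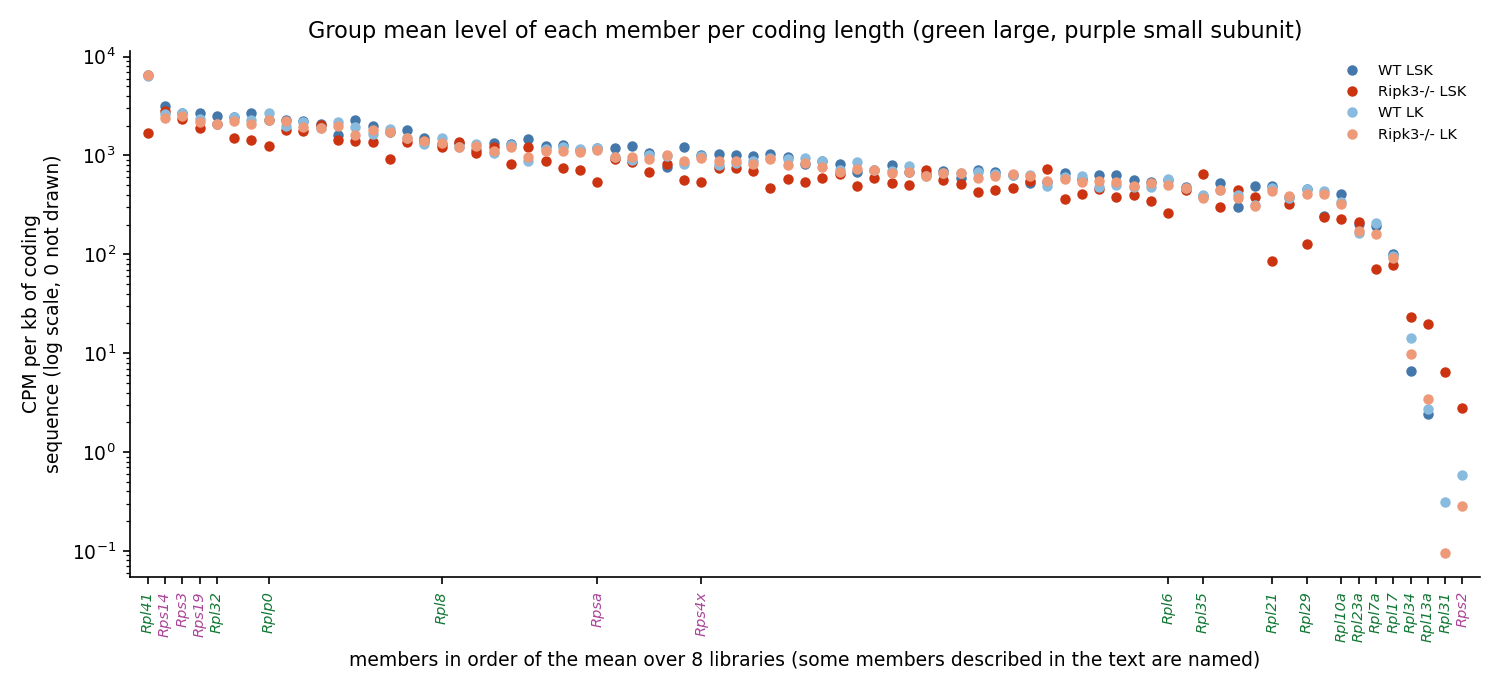
Mean level of the 77 members with any read, in each group, in CPM per kb of coding sequence (log axis, values of 0 not drawn), ordered by the mean over 8 libraries. Most members lie within 10-fold of the median of 783, the 4 at the right lie far below it, and Ripk3-/- LSK cells stand under the other groups at Rpl21, Rpl41 and Rpl29.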

How the data were processed

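RNA from sorted cells was made into TruSeq stranded mRNA libraries, and the submitters' processing notes name TopHat and build mm9; versions, the counter and its annotation are not given in the sources used here. The signal deposited by the authors, 1 table per library, is headed FPKM, yet 100% of values in each were whole multiples (within 0.01) of 1 step, and the steps equal CPM divided by TMM factors computed within LSK and within LK. Reads were recovered from these steps. The main test was limma 3.58.1 (R 4.3.3, eBayes with trend) on log2(signal + 1). The model had a mean for each of the 4 groups and took genes averaging at least 1 in the libraries compared. Tests were two-sided with Benjamini-Hochberg adjustment over all genes tested. LSK and LK were compared on CPM with TMM factors over all 8 libraries (edgeR 4.0.16). Fold changes understate low genes. edgeR's quasi-likelihood test and DESeq2 1.42.0 on recovered reads, other scalings, filters and left-out libraries were alternatives. The fit was tested on simulated data. Gene models, coding lengths and shared 50-base runs came from GENCODE M21, in which all 78 members matched, and start sites from the RefSeq table.

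Named genes were Rpl21 and Rpl41, members called in LK or in the difference between populations, the 15 lowest adjusted p in LSK (16 with a tie), the 5 largest changes each way between LSK and LK, the 5 highest and 5 lowest per length, those at 0 or outside 10-fold of the median, and the groups given in the text. The further members called in LSK and those with over 50% own coding sequence were named after their values were seen. Some genes under this rule are not reported here. Members and lists were chosen with earlier results of these data known. Depth was 9782166 to 16280811 reads per library, and floors of 3 reads cover counting error only. Replicate numbers were not used as pairs, since nothing in the labels ties them.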

Additional observations from a re-analysis of the deposited data

Results flagged for a closer look

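The genotype difference of 3 members differed between LSK and LK cells by a test of the difference itself (limma interaction). It was -2.39 on the log2 scale for Rpl21, -1.98 for Rpl41 and -1.64 for Rpl29, each as the LSK change minus the LK change. All 3 share coding sequence with pseudogenes, since 0%, 0% and 9.74% of their coding 50-base runs are found in no other gene, and the part of this in the result was not tested. In 29 of the 77 members tested in LSK cells this share is 0%. With eBayes without trend none of the 3 passed the test (limma, adjusted p = 0.134, 0.229 and 0.250), and with no filter on low values Rpl41 and Rpl29 did not (0.232 each). With the trend on the share of own 50-base runs removed, Rpl29 stood at -1.32 (limma, adjusted p = 0.0620).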

How the results depend on the processing

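No direction of a called member reversed under any alternative run. In LSK cells 25 members were called, and 12 with no filter, 4 with eBayes without trend, 35 with median-centred libraries or with DESeq2, 22 with edgeR, 4 to 23 over the left-out libraries, and 11 with the trend on own 50-base runs removed, an alternative chosen after seeing the data. In LK cells the count was 0 throughout. For the difference of the genotype effect (3) it was 1 with no filter, 8 with CPM of the total reads, 5 with median-centred libraries, 0 with eBayes without trend, 9 with DESeq2 and 2 to 6 over the left-out libraries. For LSK against LK in WT (4) it was 1 with no filter, 43 with CPM of the total reads, 36 with quantile normalization, 28 on the deposited scale, 0 with eBayes without trend and 0 to 4 over the left-out libraries. In Ripk3-/- mice (26) it was 41 with median-centred libraries, 16 with quantile normalization, 7 with eBayes without trend, 17 with the trend on own 50-base runs removed and 11 to 27 over the left-out libraries. The cause of these differences was not tested.

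Rpl21 and Rpl29 were called in LSK cells under all 23 alternatives, and 16 of the 25 called members missed the threshold under more than 3 of them. A left-out library leaves a group with 1 sample, which is then assumed to vary like the others. With the replicate number as a block, the counts were 25, 0, 4, 5 and 25 in the order above; same-numbered libraries did not deviate together over all genes (correlations of -0.14 to 0.05), while over the members all 6 correlations were positive (0.04 to 0.33).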

Other observations

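Outside the naming rule, Rpl36al, a retained copy of Rpl36a that encodes a near-identical protein, stood at 1.09 and 0.10 in WT LSK and at 12.7 and 13.8 in Ripk3-/- LSK cells, and at 0.75 or less in LK cells. It passed the filter on low values only through the Ripk3-/- LSK libraries, so no test is given. Rpl36a itself was at 140 and 209 against 144 and 180. Rack1, a small subunit scaffold protein read under its older name Gnb2l1, was at 1351 and 1649 against 1445 and 1482 in LSK cells (-0.03, limma, adjusted p = 0.940).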
